A study of Mus musculus with 8 samples.

Results

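The Runx and Ikaros families of transcription factors were followed at the RNA level in P14 CD8+ T cells. The members were taken by gene symbol, and all 8 were found among the 24303 genes of the table: *Runx1*, *Runx2*, *Runx3*, their partner *Cbfb*, and *Ikzf1*, *Ikzf2*, *Ikzf3* and *Ikzf5*. P14 cells are mouse CD8+ T cells that carry a transgenic T cell receptor for GP33, a peptide of lymphocytic choriomeningitis virus. All cells were splenic CD8+ T cells activated on plates coated with anti-CD3 and anti-CD28 for 2 days, and each of 4 conditions had 2 RNA-Seq libraries. Day 7 was the time of collection for Effector cells, whose GP33 exposure the labels do not give, and day 19 for the others. Acute-2d cells saw no GP33 after the activation phase. Acute-7d cells received GP33 repeatedly up to day 7 and none later. T_Dysf cells, called dysfunctional in the labels, received GP33 to the end and TGF-β1 from day 7. All media held IL-2 and, after activation, IL-15. T_Dysf cells thus differed from both Acute conditions in recent antigen, its duration and TGF-β1 at once, and the parts of these 3 factors cannot be told apart. The libraries of a condition are biological replicates per the study, without saying whether these were separate mice or cultures, and p-values measure the spread between such libraries.

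Runx proteins bind DNA through the Runt domain, and each forms a heterodimer with CBFβ, the product of *Cbfb*, which does not bind DNA itself but strengthens binding by its partner. In CD8+ T cells Runx3 is known for silencing *Cd4* and for its role in cytotoxic and tissue-resident programs, Runx1 acts from the earliest thymic stages, and Runx2 is best known from bone. Ikaros proteins are zinc finger factors that bind DNA and pair with one another through C-terminal fingers, and they recruit the NuRD chromatin remodeling complex. *Ikzf1* encodes Ikaros, *Ikzf2* Helios, *Ikzf3* Aiolos and *Ikzf5* Pegasus.

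The 3 *Runx* genes are known to be transcribed from a distal and a proximal promoter, and their sequences are shown because the members that moved in opposite directions shared a stretch there. RefSeq windows (GRCm38.p6, 250 bases before to 50 after a start site) were found for 6 of the 8 members, 9 windows in all, and none was found for *Ikzf2* or *Ikzf3*. The core letters bound by Runx proteins, TGTGGT or their reverse complement ACCACA, were searched on both strands. They were present in 16.8% of 32851 promoter windows of the mouse genome. The upstream window of *Runx1*, the window of *Runx2* and the upstream window of *Runx3* each held 2 copies of ACCACA with 2 bases between them, in capitals here with 6 bases of context before the first copy.
Runx1, chr16:92826025-92826052, minus strand: taaacaACCACAgaACCACAagttgggt
Runx2, chr17:44814583-44814610, minus strand: caaacaACCACAgaACCACAagtgcggt
Runx3, chr4:135120505-135120532, plus strand: ccctcaACCACAgaACCACAaggccagg
The pair began 28 bases after the start site in *Runx1*, 23 after it in *Runx2* and 134 before it in *Runx3*. The pattern ACCACANNACCACA has the spacing seen in these 3 windows, so its presence in them was fixed in advance. It was present on either strand in 7 of the 32851 windows (0.0213%). They were those of *Runx1*, *Runx2*, *Runx3*, *Gm16225*, *Gm12236*, *Gm15462* and *Olfr24*, and the share is no background for the *Runx* genes. The longer run ACCACAGAACCACAAG was read from the windows of the 3 *Runx* genes, so its presence there was fixed in advance. It was present in 4 windows (0.0122%), those 3 and that of *Gm16225*, which lies on the opposite strand and overlaps the *Runx3* window. The 250 bases before each of these start sites follow, with ACCACA in capitals, so that the surrounding sequence can be compared.
Runx1, chr16:92826075-92826324, minus strand: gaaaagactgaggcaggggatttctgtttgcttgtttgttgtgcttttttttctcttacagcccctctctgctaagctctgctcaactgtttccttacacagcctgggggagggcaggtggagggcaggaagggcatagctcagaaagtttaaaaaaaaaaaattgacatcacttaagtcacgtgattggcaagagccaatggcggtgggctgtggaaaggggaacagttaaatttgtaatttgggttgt
Runx2, chr17:44814628-44814877, minus strand: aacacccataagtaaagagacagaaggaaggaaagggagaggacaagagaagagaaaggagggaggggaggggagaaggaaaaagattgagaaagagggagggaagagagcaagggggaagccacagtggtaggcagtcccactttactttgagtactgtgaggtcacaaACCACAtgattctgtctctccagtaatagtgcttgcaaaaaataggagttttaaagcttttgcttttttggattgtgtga
Runx3, chr4:135120395-135120644, plus strand: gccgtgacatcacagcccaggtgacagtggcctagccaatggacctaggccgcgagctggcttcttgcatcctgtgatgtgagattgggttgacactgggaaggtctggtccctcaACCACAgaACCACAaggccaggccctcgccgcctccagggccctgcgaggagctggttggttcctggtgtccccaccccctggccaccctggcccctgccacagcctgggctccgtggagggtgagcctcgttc
Within these bases *Runx2* held 1 further ACCACA, 80 bases before its start site, and *Runx1* held none. The downstream windows of *Runx1* and *Runx3* and all windows of *Cbfb*, *Ikzf1* and *Ikzf5* held neither TGTGGT nor ACCACA, which says only that these letters were not in the windows. The Ikaros core TGGGAA, or TTCCCA, was present in 25.6% of all windows and once among those of the members, 154 bases before the upstream start of *Runx3*. The *Runx1* windows differed in base composition: the upstream one was 45.0% G or C with 2 CpG, and the downstream one 69.0% with 35 CpG, where the median over all windows was 52.7% with 7 CpG. The *Runx3* windows were 63.7% with 8 CpG and 77.3% with 45 CpG. The values are gene totals, so the share of transcripts from each start site was not tested.

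**Figure D1:**
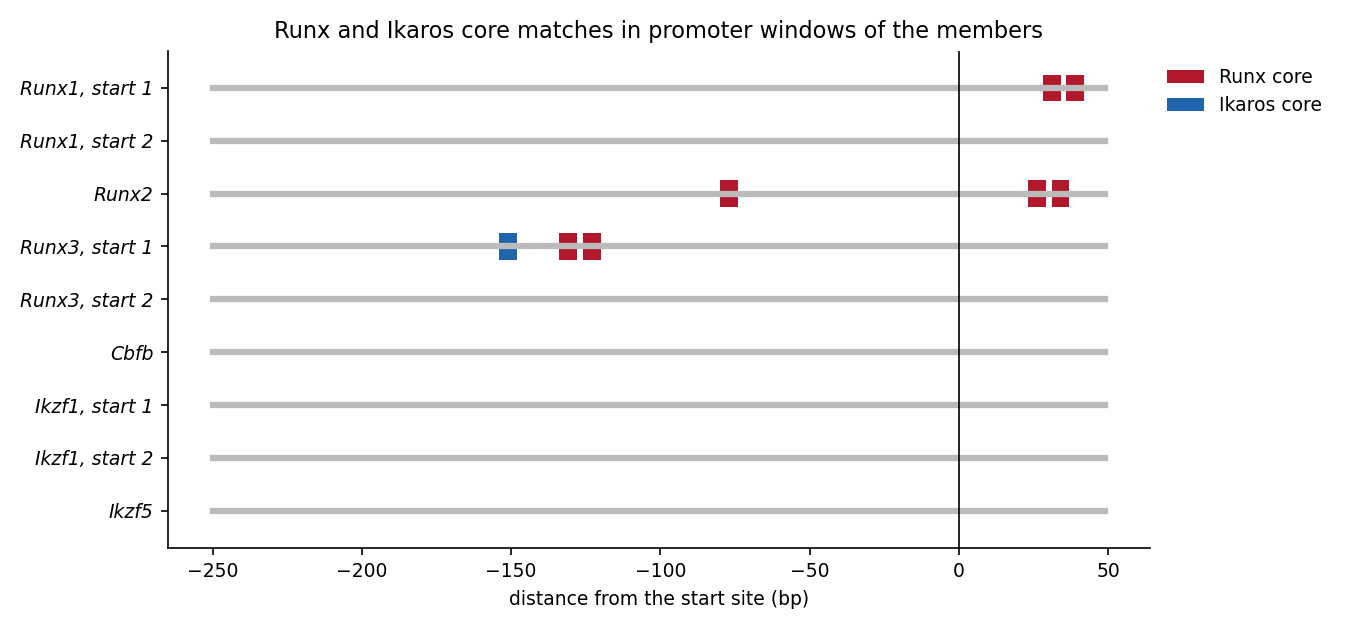
Positions of Runx core letters (TGTGGT or ACCACA, red) and Ikaros core letters (TGGGAA or TTCCCA, blue) in 9 promoter windows of 6 members, by distance from the start site in base pairs. Paired red marks stand in the upstream windows of *Runx1* and *Runx3* and in the *Runx2* window, and the other 6 windows hold no match.

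Depth was 19382147 to 24856224 reads on genes per library, and every member lay far above the 3-read floor of 2.59 to 3.35 normalized counts. Library names start with RESUB, a word left unexplained in the labels, for Acute-7d replicate 1 and for the Effector pair. In these 3 libraries *Xist* was at 53.5 to 115 normalized counts and the Y-linked *Ddx3y* at 1334 to 2161, the pattern of male cells. In the other 5 they were at 21871 to 30427 and 0 to 2.59, the pattern of female cells. The Acute-7d pair thus came from mice of different sex. RESUB and donor sex cannot be told apart, and the Acute-7d pair alone separates them from the Effector condition. The summed level of 8 CD8 T cell markers was 207215 to 207962 in T_Dysf and 97628 to 114775 elsewhere. It was not uniform: *Cd2*, one of the 8, was lower in T_Dysf (3439 and 3478) than elsewhere (6566 to 8820.5), and *Lck* was at 15742 to 18942.5 throughout. Of the 3 CD4 T cell markers, *Cd4* was at 1.01 to 13.0 and *Cd40lg* at 0 to 13.0 in all libraries. The other, *Zbtb7b*, was at 1041 to 1625. The 5 B cell markers summed to 55.8 to 178, the 5 myeloid markers to 263 to 648 and the 4 erythroid markers to 43.1 to 101. *Foxp3*, the regulatory T cell marker, was at 2.15 to 49.5. The 2 NK cell markers summed to 1035 to 1489 in Acute-7d, 245 to 545 in T_Dysf and 252 to 567 in the other conditions. The part of any of these in the results below was not tested. In bulk RNA, fewer cells of a type and less RNA per cell cannot be told apart.

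T_Dysf cells had less *Runx1* and more *Runx2*, *Runx3* and *Ikzf3* RNA than both Acute conditions. A difference is called here when limma's Benjamini-Hochberg adjusted p over all 24303 genes was under 0.05, and a gene is a differentially expressed gene (DEG) when the fold change was also at least 2. Against Acute-7d, 3 members rose (background 4.79% of all genes) and 1 fell (4.42%), and 1 was a DEG in each direction, *Ikzf3* up (2.54%) and *Runx1* down (3.03%). Against Acute-2d, 3 members rose (5.85%) and 1 fell (6.01%), with 2 DEGs up, *Runx2* and *Ikzf3* (3.14%), and 1 down, *Runx1* (4.21%). Against Effector, 2 members rose (8.14%) and 2 fell (7.44%), with 2 DEGs up, *Runx2* and *Ikzf3* (4.47%), and none down (4.75%). These 3 comparisons share the T_Dysf libraries. Both T_Dysf libraries lay above the other 6 for *Runx2*, *Runx3* and *Ikzf3*, as for 11.6% of all genes, and below the other 6 for *Runx1* and *Ikzf1*, as for 12.0%. Among the other conditions no member was a DEG between Acute-7d and Acute-2d (0.169%), Effector and Acute-7d (8.06%) or Effector and Acute-2d (8.78%). At an unadjusted p under 0.05, limma gave 3 of 8 members between the Acute conditions (background 7.31% of all genes), 4 between Effector and Acute-7d (30.4%) and 4 between Effector and Acute-2d (31.2%).

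**Figure D2:**
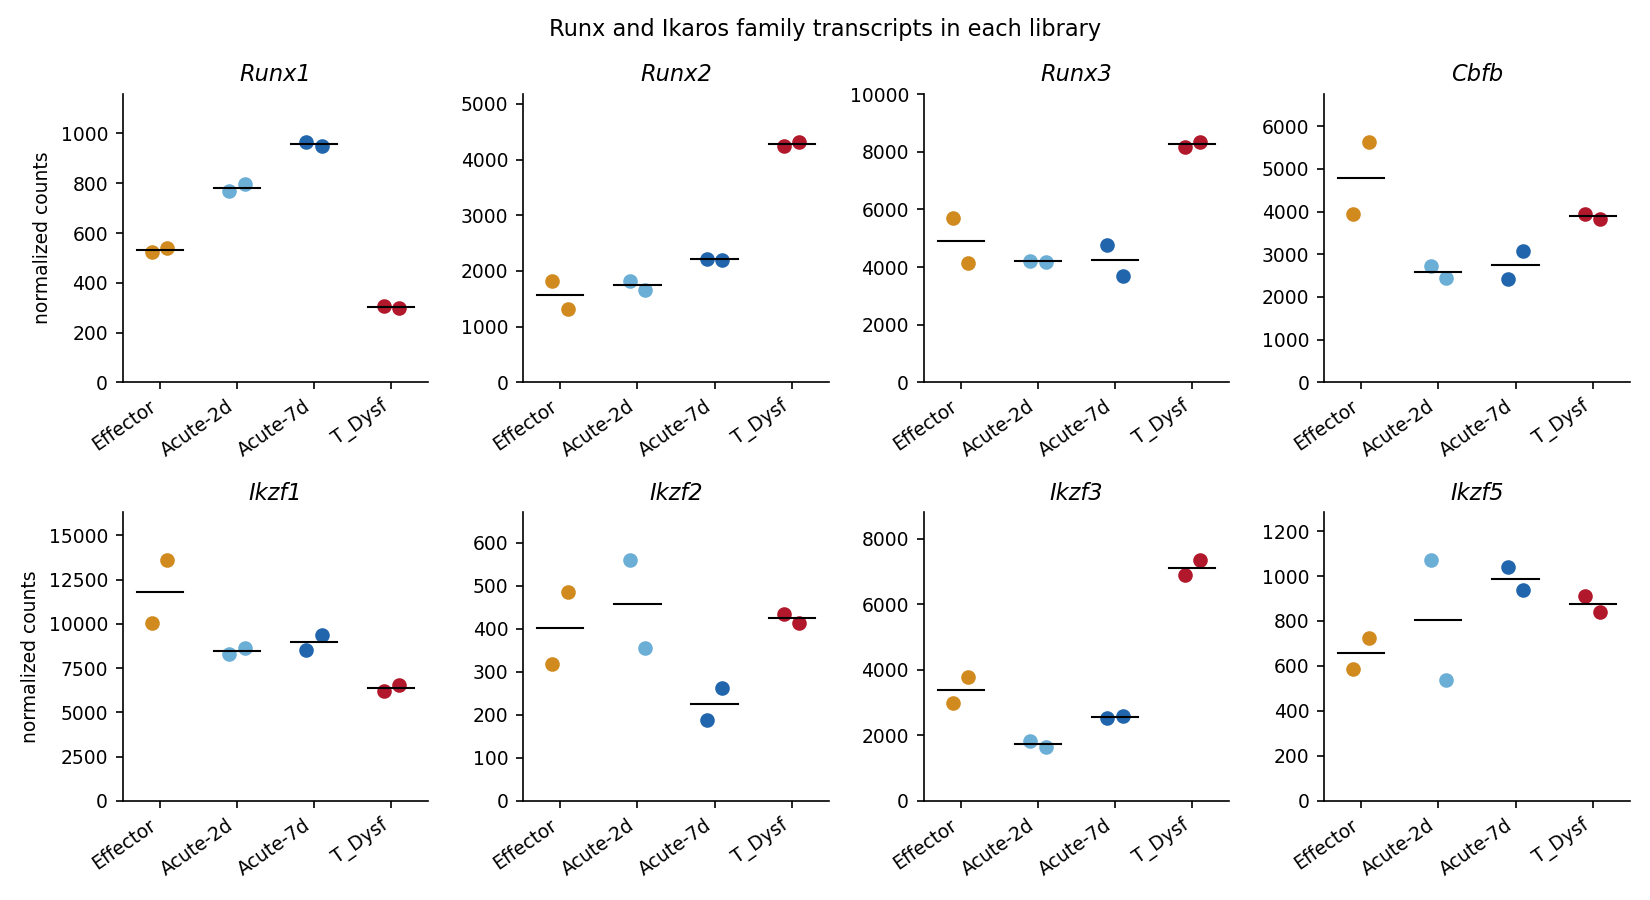
Normalized counts of the 8 members in each library (points) with the mean of each condition (line), on linear axes that start at 0 and differ between panels. *Runx1* is lowest in T_Dysf at 297 and 306, while *Runx2*, *Runx3* and *Ikzf3* are highest there.

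*Runx1* (chr16:92601466-92826149, minus strand, GENCODE vM21) was the member with the smallest spread between libraries of the same condition on the log2 scale. Normalized counts were 525 and 539 in Effector, 769.9 and 796 in Acute-2d, 967 and 948 in Acute-7d, and 306 and 297 in T_Dysf. No library of a condition overlapped another condition, and the order was Acute-7d, Acute-2d, Effector, T_Dysf. From Acute-7d to T_Dysf the log2 fold change was -1.66 (SE 0.0439, adjusted p = 0.000449), a fall to 0.315 of the Acute-7d level. It was -1.37 against Acute-2d (adjusted p = 0.000537) and -0.82 against Effector (adjusted p = 0.00223), the last under the 2-fold limit. Effector cells also had less *Runx1* than Acute-7d cells (log2 fold change -0.85, adjusted p = 0.00460, background of falls 7.16%) and than Acute-2d cells (-0.56, adjusted p = 0.00809, background of falls 7.79%). The difference from Acute-2d was lost with a term for the RESUB libraries (adjusted p = 0.0793) and in a fit of these groups alone (0.0839), and that from Acute-7d in a fit of these groups alone (0.0512). Between Acute-7d and Acute-2d the difference of 0.29 had an adjusted p of 0.257. Both DEG calls of *Runx1* held under all 19 alternative settings, with adjusted p from 0.000217 to 0.0137 against Acute-7d and from 0.000338 to 0.0124 against Acute-2d.

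*Runx2* (chr17:44495987-44814797, minus strand) rose in T_Dysf by more than *Runx3* against Acute-2d and Effector, and by about as much against Acute-7d. Its normalized counts were 1819 and 1323 in Effector, 1827 and 1655 in Acute-2d, 2215 and 2197 in Acute-7d, and 4242 and 4323 in T_Dysf. The T_Dysf libraries were close to each other and above all others, and Effector overlapped Acute-2d. The log2 fold change was 1.46 against Effector (SE 0.157, adjusted p = 0.00923), 1.30 against Acute-2d (adjusted p = 0.0123) and 0.96 against Acute-7d (adjusted p = 0.0310), the last a 1.94-fold rise just under the DEG limit. The rise against Acute-7d had an adjusted p of 0.05 or more under 9 of 19 alternatives, up to 0.141, among them leaving out any of the Acute-2d, Acute-7d or T_Dysf libraries. The call against Acute-2d was lost without Acute-2d replicate 1, without Acute-2d replicate 2 and without T_Dysf replicate 1. The call against Effector was lost without T_Dysf replicate 1, and log2 fold changes were from 1.23 to 1.48 in these fits. It was also lost with a RESUB term (1.48, adjusted p = 0.131) and in a fit of these groups alone (1.46, adjusted p = 0.0789).

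*Runx3* (chr4:135120652-135177990, plus strand) was the most abundant member of its family. It had 5699 and 4144 normalized counts in Effector, 4219 and 4168 in Acute-2d, 4774 and 3685 in Acute-7d, and 8181 and 8354 in T_Dysf. Effector, Acute-2d and Acute-7d overlapped, and T_Dysf stood above them. The rise was 1.97-fold against Acute-7d (log2 fold change 0.98, SE 0.194, adjusted p = 0.0474) and 1.97-fold against Acute-2d (adjusted p = 0.0405), both under the 2-fold limit. Against Effector the log2 fold change of 0.77 missed the threshold (adjusted p = 0.0626, 95% interval 0.27 to 1.27). Both rises depended on the settings. The adjusted p against Acute-7d ranged from 0.00913 to 0.183 and was 0.05 or more under 13 of 19 alternatives, and that against Acute-2d ranged from 0.00730 to 0.162 and was 0.05 or more under 9. With the replicate block the value against Acute-7d had an adjusted p of 0.0582.

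With levels taken per kilobase of the longest transcript, the family was led by *Runx3* in every library. Its share of the 3 *Runx* transcripts was 65.4% to 79.8%, and 74.8% and 74.9% in T_Dysf, inside the range of the other conditions. *Runx1* held 1.85% and 1.77% of the family in T_Dysf against 4.87% to 11.2% in the other 6 libraries, and *Runx2* held 23.3% in both T_Dysf libraries against 15.0% to 23.4%. The ratio of *Runx2* to *Runx1* normalized counts was 13.9 and 14.5 in T_Dysf and 2.08 to 3.47 elsewhere, and that of *Runx3* to *Runx1* was 26.8 and 28.1 against 3.89 to 10.9. The ratio of *Runx3* to *Runx2* was 1.93 in both T_Dysf libraries, within the range of 1.68 to 3.13 elsewhere. These ratios are descriptions with no test.

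**Figure D3:**
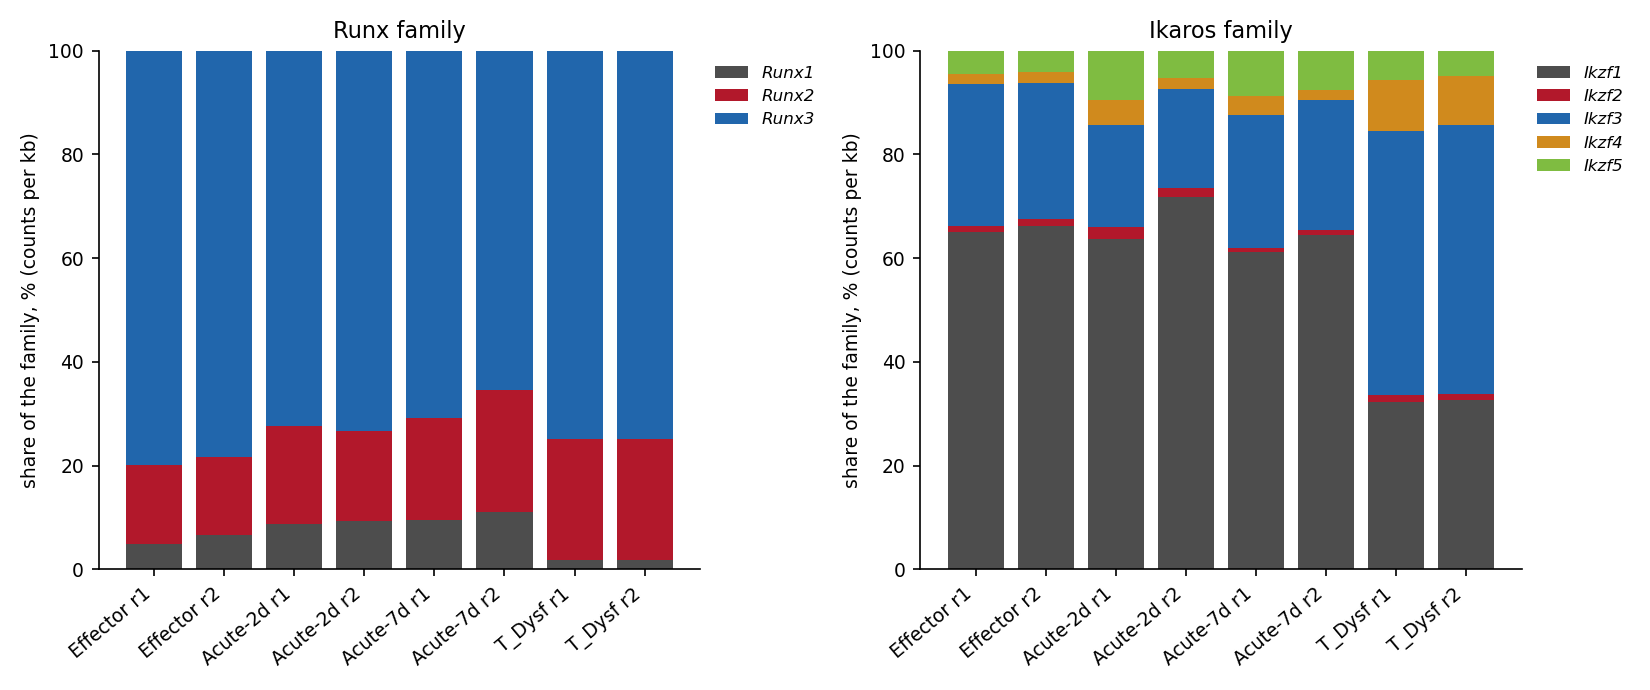
Share of each gene in its family per library, in percent of the summed normalized counts per kilobase of the longest transcript, for the *Runx* genes and for the Ikaros genes with *Ikzf4* included. *Runx1* narrows to under 2% in T_Dysf and *Ikzf3* widens to 50.8% and 51.8%.

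*Cbfb* (chr8:105170674-105217989, plus strand), the shared partner, had 3947 and 5639.7 normalized counts in Effector, 2729.8 and 2433 in Acute-2d, 2429.96 and 3077 in Acute-7d, and 3943 and 3835 in T_Dysf. Both T_Dysf libraries were above the 4 Acute libraries and below both Effector libraries, one of which was close to them and the other far above. No comparison passed: the log2 fold change was 0.51 against Acute-7d (adjusted p = 0.211, 95% interval -0.03 to 1.05), 0.59 against Acute-2d (adjusted p = 0.149) and -0.28 against Effector (adjusted p = 0.426). Effector against Acute-2d gave 0.87 (adjusted p = 0.0536) and against Acute-7d 0.79 (adjusted p = 0.0700). Without Effector replicate 1 these became 1.13 (adjusted p = 0.0301) and 1.04 (adjusted p = 0.0376), past the DEG limit. The summed *Runx* counts per *Cbfb* count were 3.23 and 3.38 in T_Dysf and ranged from 1.07 in Effector replicate 2 to 3.27 in Acute-7d replicate 1, so T_Dysf overlapped Acute-7d.

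*Ikzf3* (chr11:98464902-98546031, minus strand), which encodes Aiolos, was the only member that was a DEG in all 3 comparisons with T_Dysf. Normalized counts were 2983 and 3796 in Effector, 1819 and 1630.1 in Acute-2d, 2537 and 2578 in Acute-7d, and 6891 and 7350.2 in T_Dysf. The 4 conditions did not overlap, in the order T_Dysf, Effector, Acute-7d, Acute-2d. T_Dysf cells had 4.13-fold more than Acute-2d (log2 fold change 2.05, SE 0.130, adjusted p = 0.00302), 2.78-fold more than Acute-7d (1.48, adjusted p = 0.00767) and 2.11-fold more than Effector (1.08, adjusted p = 0.0115). Effector exceeded Acute-2d by 0.97 on the log2 scale (adjusted p = 0.0171, background of rises 7.94%), and the difference of 0.57 between the Acute conditions had an adjusted p of 0.422. The rise in Effector was lost without Acute-2d replicate 1 or 2, in a fit of these groups alone and with the RESUB term (adjusted p = 0.171). No member rose from Acute-7d to Effector (background 7.70%). The call against Acute-2d held under all 19 alternatives. Against Acute-7d it was lost without Acute-7d replicate 1 (1.46, adjusted p = 0.0511), the fit that leaves no RESUB library in this comparison. With the RESUB term the call against Acute-7d was lost as well (1.46, adjusted p = 0.0510). Against Effector the call was lost without T_Dysf replicate 1 (1.13) and fell under 2-fold without Effector replicate 1 (0.91). It was also lost there with the RESUB term (1.06, adjusted p = 0.158) and in a fit of these groups alone (1.08, adjusted p = 0.0855).

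*Ikzf1* (chr11:11685003-11772926, plus strand), which encodes Ikaros, had 10033 and 13596 normalized counts in Effector, 8309 and 8652 in Acute-2d, 8532 and 9373 in Acute-7d, and 6196 and 6552 in T_Dysf. The Acute conditions overlapped, Effector lay above them and T_Dysf below all. *Ikzf1* fell from Effector to T_Dysf (log2 fold change -0.87, SE 0.157, adjusted p = 0.0275), under the 2-fold limit. Against Acute-7d the value was -0.49 (adjusted p = 0.136, 95% interval -0.90 to -0.08) and against Acute-2d -0.41 (adjusted p = 0.176), neither past the threshold. Without Effector replicate 1 the difference from Effector was -1.09 (adjusted p = 0.00983), past the DEG limit. Under 8 of 19 alternatives its adjusted p was 0.05 or more, including leaving out any of the Acute-2d, Acute-7d or T_Dysf libraries, and the highest was 0.208.

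Relative to *Ikzf1*, *Ikzf3* was highest in T_Dysf. In normalized counts the ratio of *Ikzf3* to *Ikzf1* was 1.11 and 1.12 in T_Dysf and 0.188 to 0.297 in the other 6 libraries. Per kilobase of the longest transcript, *Ikzf1* held 32.4% and 32.7% of the 5 Ikaros genes in T_Dysf against 61.2% to 71.9% elsewhere, and *Ikzf3* held 50.8% and 51.8% against 19.1% to 27.3%. The length used changes which gene leads in T_Dysf. Per kilobase of all annotated exons, *Ikzf1* held 45.2% and 45.9% there and *Ikzf3* 33.2% and 34.0%, while elsewhere *Ikzf3* held 10.1% to 15.1%.

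*Ikzf2* (chr1:69531214-69687245, minus strand), which encodes Helios, had 319 and 485 normalized counts in Effector, 559 and 355 in Acute-2d, 187 and 262 in Acute-7d, and 435 and 414 in T_Dysf. Both Acute-7d libraries were below all others, and the other 3 conditions overlapped. No comparison passed: T_Dysf against Acute-7d gave 0.93 on the log2 scale (SE 0.327, adjusted p = 0.159, 95% interval 0.09 to 1.78) and Acute-7d against Acute-2d gave -1.01 (adjusted p = 0.604). *Ikzf5* (chr7:131388652-131410521, minus strand), which encodes Pegasus, had 588 and 723 in Effector, 1071 and 536 in Acute-2d, 1039 and 936 in Acute-7d, and 912 and 841 in T_Dysf. All other libraries lay inside the spread of the Acute-2d pair. The log2 difference of T_Dysf ran from -0.17 against Acute-7d (adjusted p = 0.837) to 0.42 against Effector (adjusted p = 0.460, 95% interval -0.46 to 1.30), so a change of 2-fold against Effector lay inside the interval.

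*Ikzf4*, which encodes Eos and is a relative rather than a member, showed the widest difference within the Ikaros family. Its normalized counts were 297 and 438 in Effector, 609.8 and 260.2 in Acute-2d, 517 and 289.8 in Acute-7d, and 1902 and 1885 in T_Dysf. T_Dysf libraries were above all others, and the other 3 conditions overlapped. The fold change was 5.24 against Effector (log2 fold change 2.39, SE 0.508, adjusted p = 0.0412), and the values of 2.29 against Acute-7d (adjusted p = 0.0618) and 2.25 against Acute-2d (adjusted p = 0.0563) missed the threshold. Of the other 3 relatives looked at, *Cbfa2t2*, *Cbfa2t3* and *Runx1t1*, none passed in any comparison, and *Runx1t1* was at or under 3 reads in every library.

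Taken per kilobase of the longest transcript, the members fell into an order in T_Dysf that differed from the other conditions. In T_Dysf *Runx3* was at 2129 ± 31.4 normalized counts per kilobase (SD, n = 2), *Ikzf3* at 1947 ± 88.7, *Cbfb* at 1345 ± 26.3, *Ikzf1* at 1235 ± 48.8, *Runx2* at 663 ± 8.83, *Ikzf5* at 198 ± 11.2, *Runx1* at 51.4 ± 1.02 and *Ikzf2* at 45.7 ± 1.63. The gaps between *Runx3* and *Ikzf3* and between *Cbfb* and *Ikzf1* in this order were larger than the sum of their SDs, but the order depends on the length used. Per kilobase of all annotated exons the T_Dysf order was *Runx3* at 1652, *Cbfb* at 1118, *Ikzf1* at 1103, *Ikzf3* at 813, *Runx2* at 485, *Ikzf5* at 153, *Ikzf2* at 36.5 and *Runx1* at 25.1. In Acute-7d *Ikzf1* was first at 1734 ± 115, followed by *Runx3* at 1089 ± 198, *Cbfb* at 952 ± 158, *Ikzf3* at 699 ± 7.90, *Runx2* at 341 ± 1.95, *Ikzf5* at 223 ± 16.4, *Runx1* at 163 ± 2.31 and *Ikzf2* at 24.2 ± 5.65. There *Runx3* and *Cbfb* did not differ beyond their spread. In Effector *Ikzf1* was at 2288 ± 488, *Cbfb* at 1658 ± 414, *Runx3* at 1267 ± 283 and *Ikzf3* at 927 ± 157, neighbors that lay within the sum of their SDs. In Acute-2d *Ikzf1* was at 1642 ± 47.0, *Runx3* at 1080 ± 9.26, *Cbfb* at 893 ± 72.5 and *Ikzf3* at 471 ± 36.5, each pair of neighbors further apart than its SDs.

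**Figure D4:**
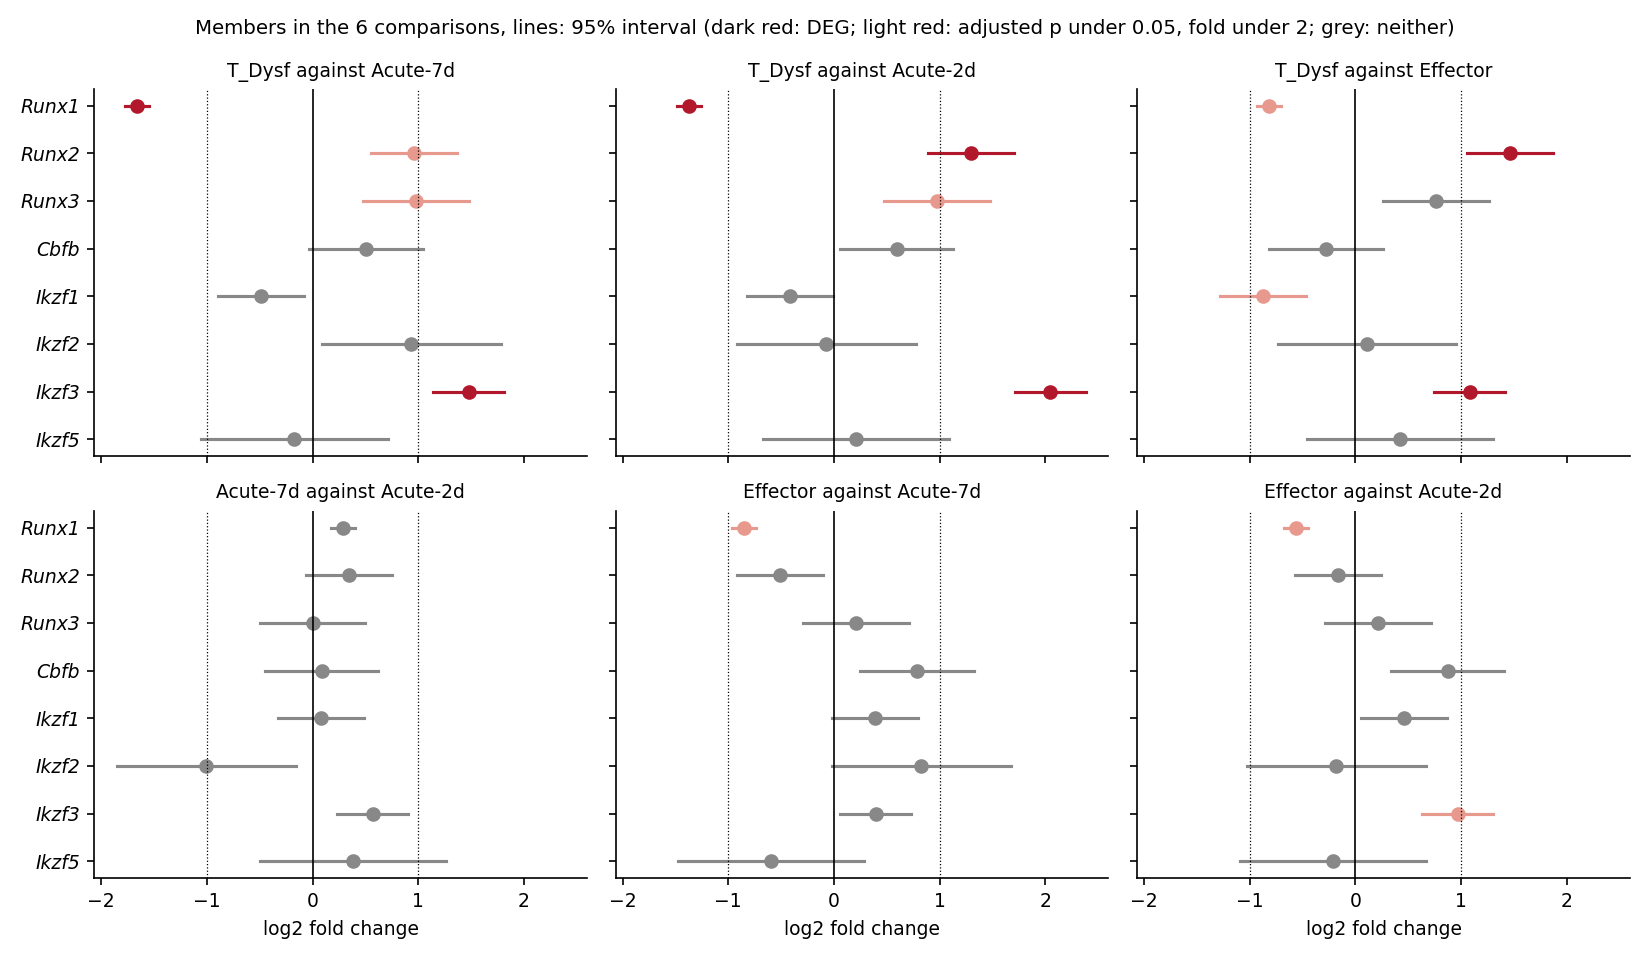
Log2 fold changes of the 8 members in 6 comparisons (points) with 95% intervals from limma (lines), dotted lines at a 2-fold change. Dark red marks DEGs, light red an adjusted p under 0.05 with a smaller change, and grey neither; *Runx1* lies left and *Ikzf3* right of 0 in all 3 comparisons with T_Dysf.

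The RESUB prefix splits the Acute-7d pair, which allows values within a prefix. Among libraries without it, T_Dysf against Acute-7d replicate 2 gave -1.65 for *Runx1* (adjusted p = 0.00206), 0.96 for *Runx2* (adjusted p = 0.139), 1.17 for *Runx3* (adjusted p = 0.0966) and 1.46 for *Ikzf3* (adjusted p = 0.0511), with the lone Acute-7d library assumed to vary like the other groups. *Runx1* was the only one of these 4 with an adjusted p under 0.05 there. Among RESUB libraries, Effector against Acute-7d replicate 1 gave -0.86 for *Runx1* (adjusted p = 0.0189). All T_Dysf and Acute-2d libraries are without the prefix. With a term for the prefix, T_Dysf against Effector gave -0.79 for *Runx1* (adjusted p = 0.0446), 1.48 for *Runx2* (adjusted p = 0.131) and 1.06 for *Ikzf3* (adjusted p = 0.158), so both DEG calls against Effector were lost. *Ikzf1* gave -1.01 (adjusted p = 0.208).

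Ikaros proteins act with the NuRD complex, and 13 of its subunit genes were taken as a list. Listed genes, here and below, and the relatives above were tested without a RESUB term. Both Effector libraries carried the prefix and the male pattern, and no T_Dysf or Acute-2d library did. Differences of these genes between Effector and T_Dysf or Acute-2d therefore cannot be told apart from prefix or donor sex. In the comparisons with T_Dysf 1 subunit was a DEG (background of DEGs up against Effector 4.47%). *Mta3*, a subunit of the metastasis-associated family, rose 2.04-fold against Effector (log2 fold change 1.03, adjusted p = 0.00474). *Mta3* was at 1810.2 and 1718 in Effector, 2029 and 2018 in Acute-2d, 2317 and 1993 in Acute-7d, and 3604 and 3597 in T_Dysf, above all others. At any fold, *Mta3* and the deacetylase *Hdac1* rose against both Acute conditions, and *Gatad2a* rose against Acute-2d (background of rises 4.79% against Acute-7d and 5.85% against Acute-2d). None of the 13 fell in T_Dysf in any of the 3 comparisons (background 4.42%, 6.01% and 7.44%), from which nothing is read with 13 genes. In Effector, *Hdac1* was higher than in Acute-7d (0.84, adjusted p = 0.0252) and Acute-2d (0.71), and *Gatad2a* (0.65) and *Mta2* (0.56, adjusted p = 0.0379) were higher than in Acute-2d. The remodeler *Chd3* was lower in Effector than in Acute-7d (log2 fold change -1.24, adjusted p = 0.0207) and Acute-2d (-1.03, adjusted p = 0.0258). Its paralog *Chd4* had 10301 to 16999.9 normalized counts over all libraries and passed in none. The median log2 fold change of the 13 was 0.12 against Acute-7d, 0.13 against Acute-2d and -0.08 against Effector, where that of all genes was 0.

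Runx proteins recruit co-repressors and co-activators, of which 12 were listed. In T_Dysf none was a DEG against Acute-7d (background 5.57%) or Acute-2d (7.35%), from which nothing is read with 12 genes. *Suv39h1*, a histone H3 lysine 9 methyltransferase, fell against Effector (log2 fold change -1.66, adjusted p = 0.0151, background of DEGs down 4.75%). It lies on the X chromosome and had 1801 and 2823 in Effector and 699 to 909 in the other 6 libraries. Acute-7d replicate 1, which shared the prefix and male pattern of Effector, was at 784. The part of prefix or donor sex was not tested. At any fold, the Groucho-family gene *Tle1* fell against Acute-2d (-0.77, adjusted p = 0.0382), and *Tle3* and the acetyltransferase *Ep300* rose against Effector (0.80 and 0.76). *Tle2* had 684 and 837 in T_Dysf and 36.1 to 240.3 elsewhere, but its log2 fold change of 3.06 against Acute-7d missed the threshold (adjusted p = 0.107). In Effector, *Crebbp* (-1.12, adjusted p = 0.0334), *Ep300* (-0.80), *Tle3* (-0.57) and *Tle4* (-0.86, adjusted p = 0.0480) were lower than in Acute-7d, *Tle1* (-0.73) and *Tle3* (-0.77) were lower than in Acute-2d, and *Suv39h1* was higher than in both (1.42 and 1.47). The list's median was -0.11, 0.09 and 0.31 in the comparisons of T_Dysf with Acute-7d, Acute-2d and Effector. The cereblon ligase, through which lenalidomide and related drugs degrade Ikaros and Aiolos in human cells, had 5 genes in the table. None was a DEG in any comparison, from which nothing is read with 5 genes. Of these, *Crbn* and *Cul4a* rose in T_Dysf against Effector at any fold. *Crbn*, the substrate receptor, was at 1268 to 1804 in all libraries and rose 1.35-fold in T_Dysf against Effector (adjusted p = 0.0487). In Effector, *Cul4a* was lower than in both Acute conditions (-0.36 against Acute-7d, -0.24 against Acute-2d) and *Rbx1* higher than in Acute-2d (0.39, adjusted p = 0.0484).

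**Figure D5:**
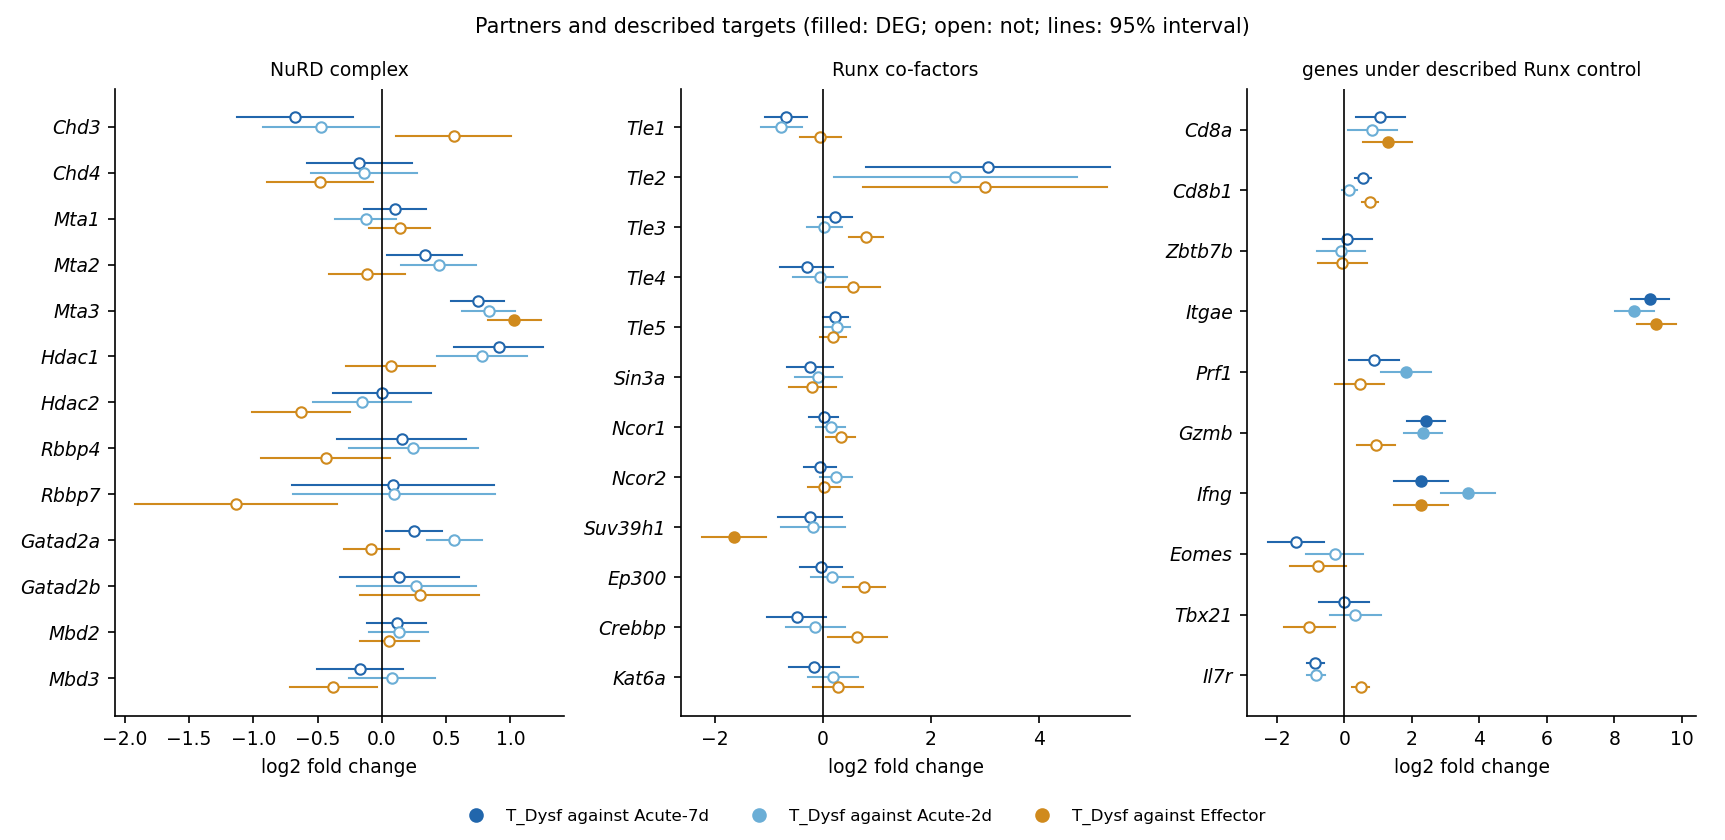
Log2 fold changes from each other condition to T_Dysf for NuRD subunits, Runx co-factors and genes with described Runx control, with 95% intervals from limma (filled points: DEG; open: not); *Cd4* is left out because its libraries are at or near the floor. *Itgae* lies near 9 and most NuRD and co-factor genes lie within 1 of 0.

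Among 11 genes with described Runx control in T cells, 3 were DEGs up against Acute-7d (background 2.54%), 4 against Acute-2d (3.14%) and 3 against Effector (4.47%). None was a DEG down (background 3.03%, 4.21% and 4.75%), from which nothing is read with 11 genes. This list, like the others, was chosen with earlier results of these data known. The counts up are therefore descriptions, and no excess over the background is read from them. *Itgae*, which encodes the CD103 integrin and is also known as a target of TGF-β1, had 40456 and 37825 normalized counts in T_Dysf and 50.2 to 101 elsewhere (log2 fold change 9.05 against Acute-7d, adjusted p = 0.000385). *Ifng* was a DEG in all 3 comparisons, the protease gene *Gzmb* against both Acute conditions, *Prf1* (perforin) against Acute-2d, and *Cd8a* against Effector. *Cd8b1* rose against Acute-7d (0.55, adjusted p = 0.0310) and Effector (0.76, adjusted p = 0.0112), under 2-fold. *Il7r* fell against Acute-7d (-0.86, adjusted p = 0.0139) and Acute-2d (-0.84), under 2-fold, and was higher than in Effector (0.49, adjusted p = 0.0366). The lineage factors *Tbx21* and *Eomes* and *Zbtb7b*, a CD4 lineage factor that Runx proteins are known to silence, passed in none of the 3. In Effector, *Gzmb*, *Ifng*, *Prf1* and *Tbx21* were higher and *Il7r* and *Cd8b1* lower than in Acute-2d, and *Gzmb* was higher and *Il7r* lower than in Acute-7d. *Cd4* was at 3.45 and 2.67 in T_Dysf. The list's median was 0.87 against Acute-7d, 0.82 against Acute-2d and 0.49 against Effector, with the median of all genes at 0. With *Cd4* left out against the Acute conditions, where it was at the floor, the medians were 0.71 and 0.58. These genes respond to many other factors, and the part of Runx proteins was not tested.

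Of 10 genes with described Ikaros control in lymphocytes, 8 were in the table. *Il10* was at 615 and 637 normalized counts in T_Dysf and at or under 3 reads in the other 6 libraries, at least 187-fold higher than in Acute-7d, 193-fold than in Acute-2d and 208-fold than in Effector (adjusted p = 0.00579, 0.00386 and 0.00447). *Dtx1*, a regulator of Notch signaling, had 1205 and 1061 in T_Dysf against 9.03 to 83.2 elsewhere, a DEG in all 3 comparisons (log2 fold change 4.42 against Acute-7d, adjusted p = 0.00921). *Dntt*, which encodes terminal deoxynucleotidyl transferase, had 349 and 348 in Acute-2d and was under 3 reads in T_Dysf, at least 130.4-fold lower (adjusted p = 0.0422). The repressor gene *Bcl6* had 59.4 and 48.2 in Effector and 132 to 205 elsewhere, and rose against Effector (1.48, adjusted p = 0.0297). *Bcl6* and *Dtx1* were both lower in Effector than in either Acute condition. *Il2* was at 1.02 to 7.11, *Hes1* at 0 to 3.35, and *Rag1* and *Igll1* were at 0 in all libraries, at or near the 3-read floor. The median log2 fold change of the list was 0.00, 0.29 and 0.20 in the comparisons of T_Dysf with Acute-7d, Acute-2d and Effector. With genes at the floor set to their bound or left out, 5 genes remained and the middle value was that of *Il2*, itself near the floor (0.57 and 0.59), or of *Bcl6* (1.48), so the medians describe single genes.

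The genes whose pattern over the 8 libraries was most like that of a member were taken by Pearson's r on log2 values among genes with a mean of at least 50. All points share the library and its normalization, and genes are not independent. For *Runx1* they were *Gm15964* and *Gm28417* (r = 0.994 for both) and *Slc14a1*, a urea transporter gene (r = 0.991), whose mean was 124 in T_Dysf and 747 in Acute-7d. For *Runx2* the first was *Gcnt1*, an O-glycan branching enzyme (r = 0.995), with 842 in T_Dysf and 127 in Effector, then *Rab28* and *Hmg20b*. For *Runx3* they were *S100a13*, *1700020L24Rik* and *Nmb* (r = 0.982 to 0.983), and for *Cbfb* *Atp6v1a*, *Slbp* and *Ndufs1* (r = 0.991 to 0.995). For *Ikzf3* they were *M6pr*, the cation-dependent mannose 6-phosphate receptor (r = 0.993), *Gpaa1* and *Prkch*, a protein kinase C gene with 11711 in T_Dysf and 4600.0 in Acute-2d (r = 0.990 for both). For *Ikzf1* they were *Trim35*, *Tnfsf14* and *Polr3b* (r = 0.985 to 0.991). *Ikzf2* (*Aimp1*, *N4bp2* and *Smim8*, r = 0.908 to 0.923) had the lowest values, and *Ikzf5* had *Lemd3*, *Gm3055* and *Gm43737* (r = 0.963 to 0.987). Among the members themselves, the largest positive r was that of *Runx2* with *Runx3* (0.86) and the lowest was that of *Runx1* with *Runx3* (-0.90).

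Reads from paralogs or overlapping genes could shift a value. The longest identical run between transcripts of different members was 38 bases, between *Runx1* and *Runx3*, and 32 bases in the Ikaros family, between *Ikzf2* and *Ikzf4*. Whether the counting used strand is not given in the sources used here, so reads from a member and an antisense neighbor cannot be told apart. *Supt3*, opposite to *Runx2*, was at 154 to 199 normalized counts in all libraries, and *Runx2os1* at 7.17 to 33.3, both small beside *Runx2*. *Pstk*, opposite to *Ikzf5*, was at 398 to 760.1, where *Ikzf5* was at 536 to 1071, so the level of *Ikzf5* is uncertain. The antisense neighbors of *Runx3* and *Ikzf1* in the table were at 15.5 or lower in every library.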

How the data were processed

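RNA-Seq of sorted P14 CD8+ T cells (poly(A)-selected libraries) was used in 4 conditions of 2 libraries. STAR, DESeq2 and mm10 are named in the submitters' processing notes, without versions. Per the methods, the authors quantified reads to RefSeq transcripts in Partek Flow and normalized gene counts by median ratio. The deposited values are a signal, estimated read counts divided by each library's size factor, and are called normalized counts here. Without whole reads, count models were not fitted.

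Differences were tested with limma 3.58.1 in R 4.3.3 (lmFit, eBayes with trend) on log2(normalized count + 1), all 24303 genes and 8 libraries in 1 fit of 4 group means, 4 residual degrees of freedom, two-sided, with Benjamini-Hochberg adjustment over all genes. The procedure was tested on simulated data. Fold changes are on the log2(value + 1) scale. DEGs had a fold change of at least 2 and adjusted p under 0.05; the methods do not say if their P was adjusted. Depth (19382147 to 24856224 reads on genes) was each library's total divided by its most frequent low value, taken as 1 read. A condition with no library above 3 reads gives a bound, taken per library, which covers counting error only.

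Lengths and positions came from GENCODE vM21 (GRCm38), promoters from RefSeq. *Aes* of a list is *Tle5* in the table, and 1 gene of the list on Runx control is not reported here. Members and lists were chosen with earlier results of these data known. All members were named, listed genes when called and a few others, and the 3 most similar genes of each member. Tables and figures were made with pandas 2.3.3, numpy 2.4.6 and matplotlib 3.10.9 under Python 3.11.15. The alternatives changed the pseudocount to 0.1 or 10, kept genes whose mean, or whose maximum, reached 50, used other scalings (75th percentile, total, quantile), dropped the variance trend, fitted each pair of groups alone, added a replicate block or a RESUB term, left out each library, or dropped the fold limit.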

Additional observations from a re-analysis of the deposited data

How the results depend on the processing

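DEGs among the members were 2 between T_Dysf and Acute-7d, 3 between T_Dysf and Acute-2d and 2 between T_Dysf and Effector. The other 3 comparisons had 0. A term for the RESUB libraries left 1 (*Runx1*) in T_Dysf against Acute-7d and 0 against Effector. A fit of the 2 groups compared left 0 against Effector. At an adjusted p under 0.05 and any fold, T_Dysf gave 4 against Acute-7d (9.21% of all genes), 4 against Acute-2d (11.9%) and 4 against Effector (15.6%). Effector gave 1 against Acute-7d (14.9%) and 2 against Acute-2d (15.7%). The counts that follow are again of DEGs. Leaving out 1 library gave 1 to 2 (T_Dysf against Acute-7d, 1 without Acute-7d replicate 1), 2 to 3 (Acute-2d), 0 to 2 (Effector, 0 without T_Dysf replicate 1), 0 to 1 (Effector against Acute-7d) and 0 to 2 (Effector against Acute-2d), the last 2 rising without Effector replicate 1. Of 912 log2 fold changes of members under 19 alternatives, 877 kept their direction and DEG call, 12 lost a DEG call, 4 gained one and 19 changed sign, all 19 of uncalled differences. Most of the 912 belong to differences that were not DEGs and had no call to lose. The 877 therefore do not measure how stable the calls were. The cause of the changes was not tested.

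Changes of sign in *Runx3* between Acute-7d and Acute-2d were to -0.014 under rescaling to 75th percentiles and under quantile normalization, and to -0.19 with the RESUB term, from 0.00. With the RESUB term the sign also turned for *Ikzf2* against Effector in T_Dysf (-0.37) and, for Effector against Acute-2d, for *Runx3* (-0.16) and *Ikzf2* (0.30). With 1 library left out, ranges crossed 0 for *Ikzf2* (T_Dysf against Acute-2d -0.40 to 0.26, against Effector -0.19 to 0.41, Effector against Acute-2d -0.51 to 0.15), *Ikzf5* (T_Dysf against Acute-2d -0.29 to 0.71, Acute-7d against Acute-2d -0.12 to 0.88, Effector against Acute-2d -0.71 to 0.28), *Runx3* (Acute-7d against Acute-2d -0.19 to 0.19, Effector against Acute-7d -0.017 to 0.44, Effector against Acute-2d -0.017 to 0.44), *Runx2* (Effector against Acute-2d -0.39 to 0.065) and *Cbfb* (Acute-7d against Acute-2d -0.085 to 0.26).

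Rescaling to 75th percentiles moved the median gene by -0.10 in T_Dysf against Acute-7d, -0.12 against Acute-2d, -0.13 in Effector against Acute-7d and -0.15 against Acute-2d, and no member's DEG call changed under this or any other scaling, while *Runx2* against Acute-7d and *Runx3* against both Acute conditions lost an adjusted p under 0.05 with this scaling and with quantile normalization. Replicate numbers were not taken as pairs: over 6 pairs of conditions the correlation of replicate deviations ran from -0.20 to 0.20, with 2 over 0.1. With the replicate block the DEG counts were 2, 3, 2, 0, 0 and 0, as without it. *Runx3* in T_Dysf against Acute-7d, under 2-fold, went to an adjusted p of 0.0582 with this block. With 2 libraries per condition the precision rests on a spread shared by all conditions.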
